A study of Mus musculus with 3 samples.

Results

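The 6 genes of the platelet-derived growth factor (PDGF) system, the ligands *Pdgfa* (ENSMUSG00000025856), *Pdgfb* (ENSMUSG00000000489), *Pdgfc* (ENSMUSG00000028019) and *Pdgfd* (ENSMUSG00000032006) and the receptors *Pdgfra* (ENSMUSG00000029231) and *Pdgfrb* (ENSMUSG00000024620), were followed across the cells of postnatal day 6 mouse retina. They were taken by symbol, each with 1 row, from the 33696 genes of the deposited gene tables. The libraries were 3, 1 per genotype, from retinal cells bound by magnetic beads against CD31 and CD11b: wild type (WT), *Tspan12* knockout (*Tspan12* KO), and *Ctnnb1* conditional knockout (*Ctnnb1* cKO, *Ctnnb1* flox/flox with *Pdgfb*-iCreER). Mice were C57BL/6, each library pooled the retinas of several pups, and WT pups came from other litters than the knockout pups. Tamoxifen was injected into the cKO pups on consecutive days from postnatal day 1. *Tspan12* encodes a co-activator of the Norrin receptor complex and *Ctnnb1* encodes beta-catenin. The Cre of the cKO is driven by the promoter of *Pdgfb*, a gene described here, and the label calls the deletion endothelial cell (EC) specific.

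PDGFs are secreted as disulfide-linked dimers that bring together a pair of receptor tyrosine kinases. PDGF-A and PDGF-C signal mainly through PDGFR alpha, PDGF-D through PDGFR beta, and PDGF-B binds both. In the developing retina, ECs, above all those at the sprouting front, release PDGF-B and recruit pericytes that carry PDGFR beta, while PDGF-A guides the spread of astrocytes that carry PDGFR alpha.

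The WT, *Tspan12* KO and *Ctnnb1* cKO libraries held 92684519, 137114957 and 37008362 UMIs (unique molecular identifiers, each marking 1 captured transcript), and 8989, 12732 and 8451 cells passed the filters. Cell names below stand for cells resembling that class by its markers. ECs numbered 541, 291 and 2728 with median UMIs of 15852, 14600 and 3391.5, microglia 287, 366 and 2128, mural cells 15, 64 and 65, and astrocytes 21, 48 and 19, in the order WT, *Tspan12* KO and *Ctnnb1* cKO, which is kept throughout. No EC subcluster held 10 or more cells of both the WT and the *Ctnnb1* cKO library, the largest cKO ones were led by interferon-induced genes such as *Ifit1* and *Ifit3*, and 21 to 37 cell barcodes were shared by each pair of libraries. In ECs the targeted genes stood at 96.2, 84.9 and 40.5 CPM for *Tspan12* and 523, 612 and 444 CPM for *Ctnnb1*. These libraries read the 3' end of transcripts, and a part deleted elsewhere in a gene would leave that end, so the values do not check the labels. Levels are a gene's UMIs per 1000000 UMIs of the class (CPM) with an exact Poisson 95% interval, and differences are log2 ratios of CPM to WT with an exact conditional binomial 95% interval. With 1 library per genotype, no replicate check exists. Intervals cover counting error alone, and genotype, litter, depth and library cannot be told apart in any comparison. In the cKO, the Cre transgene cannot be told apart from the deletion either, nor can tamoxifen, which is not described for WT pups.

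*Pdgfb* was detected above all in ECs and microglia, and its level in ECs was 2.27-fold that of WT in the *Ctnnb1* cKO library. In ECs it gave 3346, 1593 and 6154 UMIs, or 207 CPM (200 to 214), 245 CPM (233 to 258) and 468 CPM (457 to 480). The 3 intervals did not overlap, and the cKO library stood highest. On the log2 scale the difference from WT was 0.25 (0.16 to 0.33) for *Tspan12* KO against 1.18 (1.12 to 1.24) for the cKO, and the cKO level exceeded that of *Tspan12* KO by a log2 ratio of 0.93 (0.85 to 1.01). Scaling by the trimmed mean of M values shifted all log2 ratios of cKO ECs by 0.15, which put *Pdgfb* at 1.33.

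Thinned to 2000 UMIs per cell, a *Pdgfb* UMI was present in 33.4% of 521 WT ECs (exact Clopper-Pearson interval 29.4 to 37.6%). The share was 39.7% among 262 ECs with *Tspan12* knocked out (33.7 to 45.9%) and 58.2% among 1907 ECs from the cKO library (55.9 to 60.4%). Without thinning, when deeper cells have more chances to show a gene, the order was the opposite, with 82.8%, 76.6% and 69.1%. Rods, photoreceptors used here as a class that should lack the gene, held a *Pdgfb* UMI in 0.639%, 0.545% and 3.54% of thinned cells, at median depths before thinning of 3069, 1612.5 and 1312 UMIs. *Pdgfb* in rods was 3.54, 2.22 and 21.0 CPM. Of the 1545 cKO rods, 1470 lay in a cluster that held 26 WT and 66 *Tspan12* KO rods, so the rods compared were mostly of different clusters. Across the 7 neural and glial classes other than astrocytes it ranged from 0.852 to 3.77 CPM in WT and from 8.13 to 24.4 CPM in *Ctnnb1* cKO, so every such class of the cKO library was above its WT counterpart. Endothelial markers in rods went in the same order, with a smaller rise in the cKO: their summed level was 170, 109 and 427 CPM. All 10 markers were detected in rods of each library. In Muller glia these markers summed to 791, 702 and 916 CPM, and *Pdgfb* was 3.77, 2.75 and 13.1 CPM. The part of free RNA in the *Pdgfb* level was not tested beyond the next value. With the rod level of the same library subtracted, the endothelial log2 ratios were 0.26 and 1.14.

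**Figure D1:**
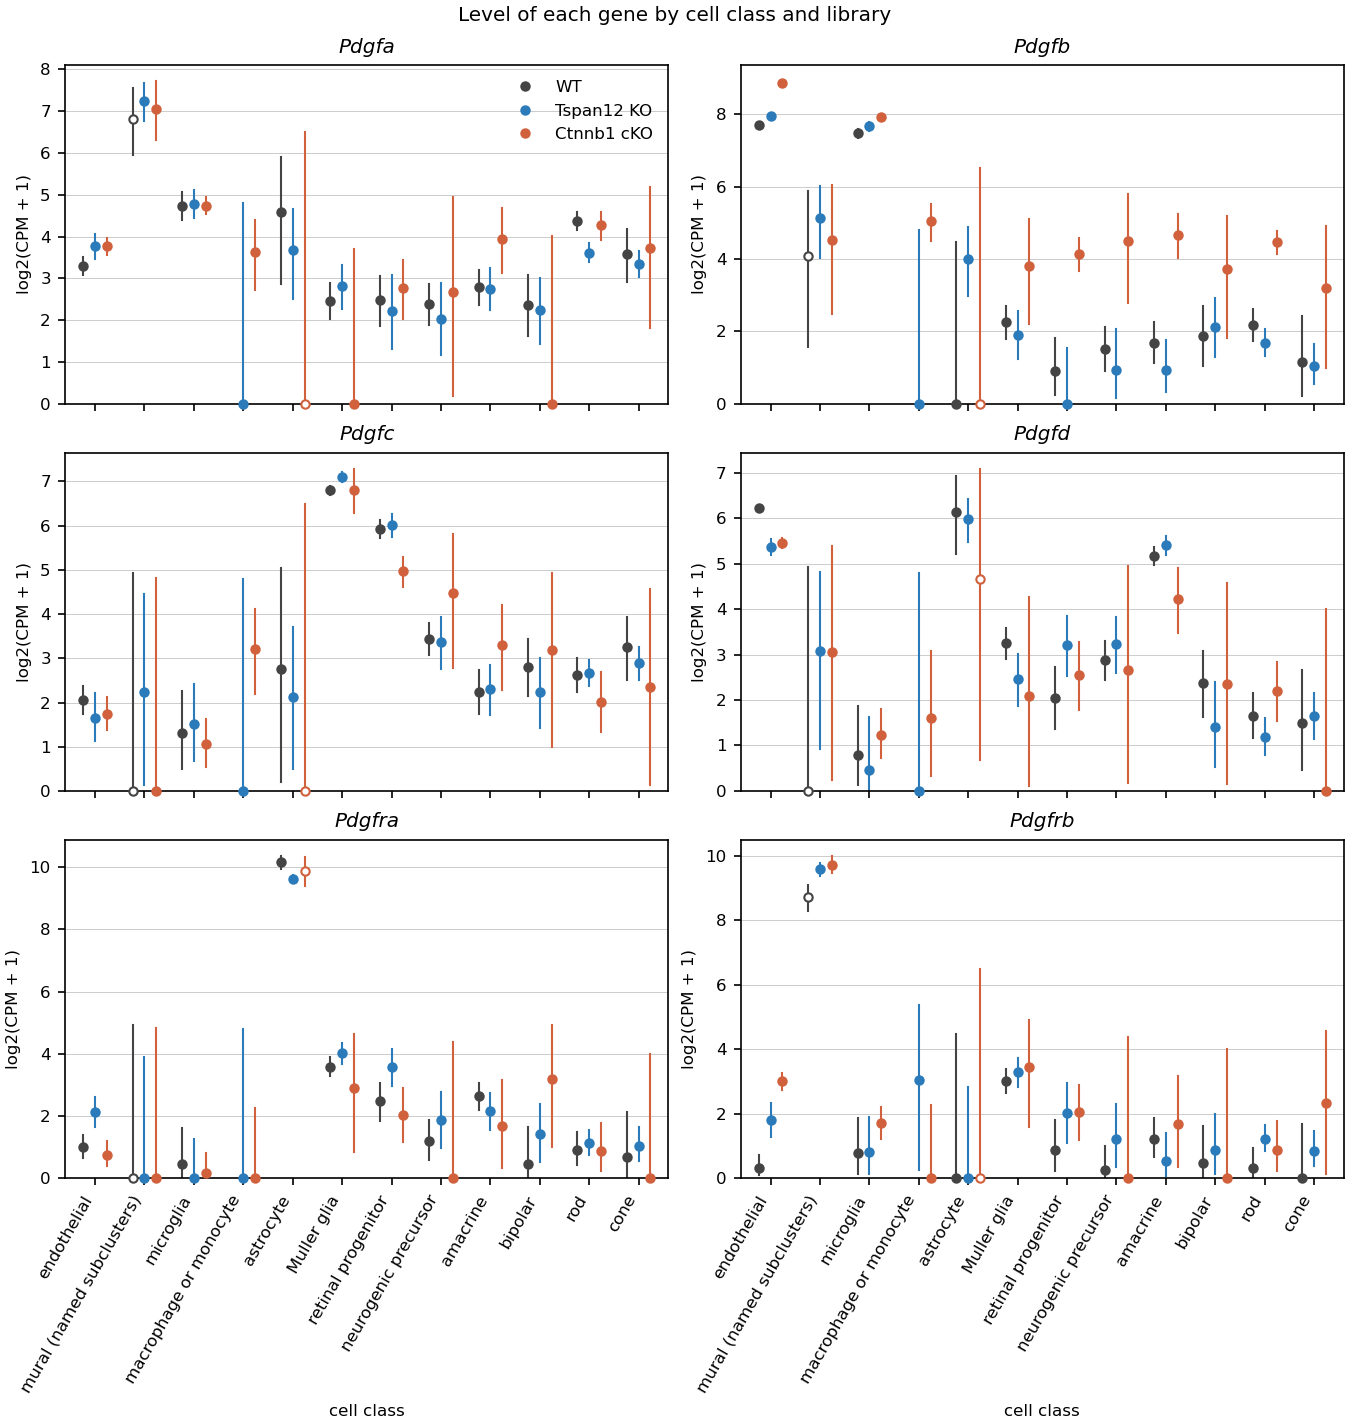
Level of each gene, as log2(CPM + 1), by cell class (x axis) and library (colour), with points for the summed cells of a class, bars for the exact Poisson 95% interval and open points for classes under 20 cells. *Pdgfb* peaked in ECs and microglia, *Pdgfc* in Muller glia, *Pdgfra* in astrocytes and *Pdgfrb* in mural cells of all 3 libraries.

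*Pdgfb* in ECs was also set out by cell cycle state and by tip cell genes. The share of ECs in subclusters named proliferative was 40.9%, 48.1% and 12.6%. In those cells *Pdgfb* was 194, 252 and 355 CPM, and in the remaining ECs 227, 234 and 497 CPM. Outside the proliferative subclusters the log2 ratio was 0.046 (-0.096 to 0.19) between *Tspan12* KO and WT, an interval that includes 0, whereas cKO over WT gave 1.13 (1.05 to 1.22). The *Tspan12* KO difference was thus met in proliferative ECs, with 0.38 (0.27 to 0.49), and was not detectable outside them at this depth, though the groups of cells were not tested against each other. No EC subcluster met the naming rule for tip cells, the leading cells of a sprout, so ECs were split by their UMIs over 9 tip genes after thinning, a split chosen after values were seen. ECs with 3 or more tip UMIs numbered 90, 68 and 221 and held 271, 293 and 664 CPM of *Pdgfb*. ECs with none held 177, 201 and 432 CPM. The log2 ratio of the former to the latter was 0.62 (0.48 to 0.75), 0.54 (0.35 to 0.74) and 0.62 (0.51 to 0.73), so *Pdgfb* was higher in cells with tip transcripts within each library. The cKO ECs of each tip group stood above the WT ECs of the same group. In the *Ctnnb1* cKO library, the subclusters with over 200 ECs lay between 356 CPM, in the proliferative one, and 573 CPM, in an unnamed one led by *Ly6a* and interferon-induced genes, and the arterial subcluster held 476 CPM.

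**Figure D2:**
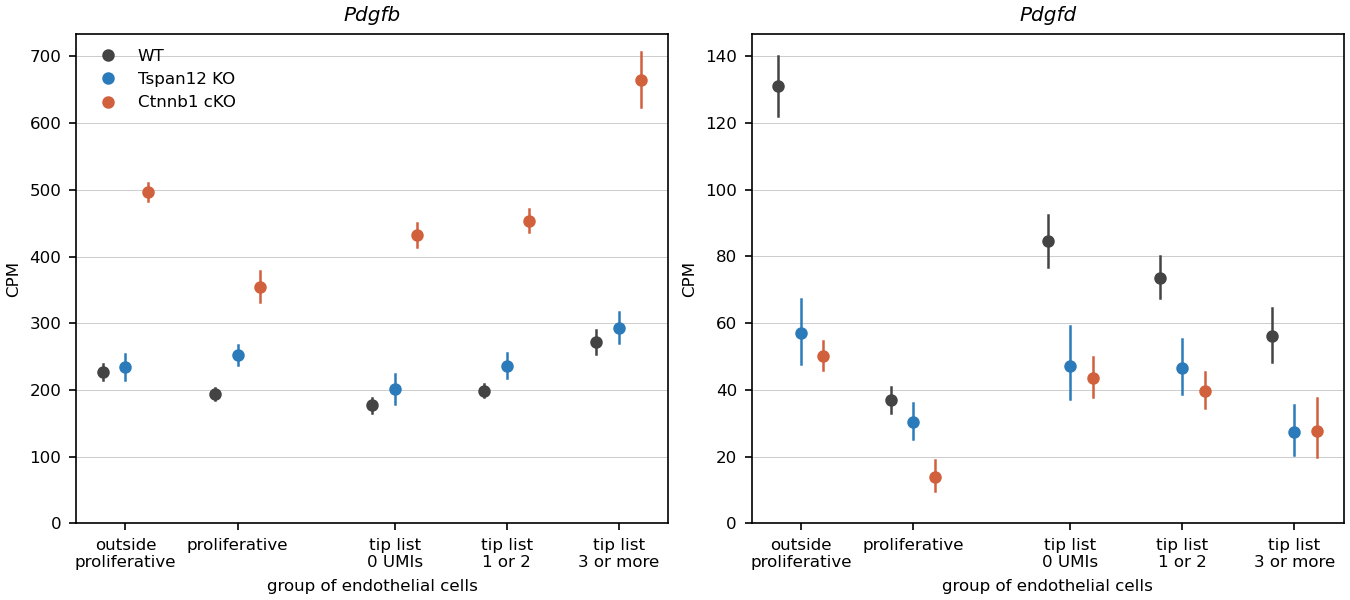
CPM of *Pdgfb* (left) and *Pdgfd* (right) in ECs of each library (colour), outside and in proliferative subclusters and by UMIs of 9 tip genes per thinned cell, with exact Poisson 95% intervals as bars. In all 3 libraries *Pdgfb* was highest and *Pdgfd* lowest among the tip groups in cells with 3 or more tip UMIs.

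The Cre transgene of the cKO carries *Pdgfb* promoter sequence, and the gene table has no row for Cre or a fluorescent reporter. Whether reads of the transgene enter the *Pdgfb* row was not tested, and they cannot be told apart from reads of the endogenous gene in these counts.

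Microglia, the resident phagocytes of the retina, were the other main source of *Pdgfb* UMIs. They held 481, 544 and 1814 UMIs, or 177 CPM (162 to 194), 203 CPM (186 to 220) and 243 CPM (232 to 255). After thinning, 24.2%, 26.9% and 33.6% of microglia had a *Pdgfb* UMI, against the rod shares given above. The microglial level was lower than the endothelial level in each library, with intervals that did not overlap, and the log2 ratio to WT was 0.19 (0.015 to 0.37) with *Tspan12* KO against 0.46 (0.31 to 0.61) with cKO microglia. Endothelial markers summed to 173, 92 and 393 CPM in microglia and to 9322, 8607 and 7687 CPM in ECs. Macrophages or monocytes of the cKO library, 305 cells, held 31.9 CPM (21.6 to 45.2). *Ctnnb1* itself stood at 180, 188 and 121 CPM in microglia, a class in which *Pdgfb*, whose promoter drives the Cre, was detected. Whether microglia of the cKO library lost the floxed part of *Ctnnb1* was not tested.

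The libraries filled different microglial clusters. One had 19, 22 and 1826 cells with *Pdgfb* at 212 CPM (150 to 292), 690 CPM (530 to 882) and 251 CPM (238 to 264), so that within it *Tspan12* KO stood highest, from 22 cells. A single *Tspan12* KO microglial cell held 31 of the 544 *Pdgfb* UMIs of its class. Whether that cell lay in this cluster was not examined. The cluster of most WT and *Tspan12* KO microglia, with 161, 256 and 37 cells, held 191 CPM (173 to 210), 195 CPM (178 to 215) and 159 CPM (110 to 224), with overlapping intervals. Between WT and cKO, neither cluster had intervals that lay apart, unlike microglia as a whole. Another cluster, with 99, 75 and 61 cells, held 53.2, 42.8 and 60.3 CPM.

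*Pdgfd*, a ligand secreted in a latent form with a CUB domain that must be cut off, was lower in ECs of both knockout libraries. It gave 1191, 262 and 563 UMIs in ECs, or 73.6 CPM (69.5 to 77.9), 40.3 CPM (35.6 to 45.5) and 42.8 CPM (39.4 to 46.5). The WT interval lay above both knockout intervals, which overlapped each other. Against the same WT library, the log2 ratio was -0.87 (-1.07 to -0.67) with *Tspan12* KO ECs and -0.78 (-0.93 to -0.63) with cKO ECs. Between the knockout libraries the log2 ratio, cKO over *Tspan12* KO, was 0.087 (-0.13 to 0.30).

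Proliferative ECs held less *Pdgfd* than the remaining ECs within each library, by log2 ratios of -1.83 (-2.01 to -1.65), -0.91 (-1.27 to -0.55) and -1.86 (-2.39 to -1.37). Outside the proliferative subclusters *Pdgfd* was 131, 56.9 and 50.1 CPM, with log2 ratios to WT of -1.20 (-1.47 to -0.94) for the former knockout, -1.39 (-1.55 to -1.23) for the latter. In the proliferative subclusters it was 36.9, 30.4 and 13.8 CPM, with ratios of -0.28 (-0.59 to 0.018) and -1.42 (-1.96 to -0.92). The decrease was thus larger outside the proliferative cells than over all ECs, whose proliferative share differed between libraries. A mean over cells in place of summed UMIs gave -0.39 and -0.29, less than the decrease in summed counts. The WT capillary subcluster, 255 cells, held 140 CPM of *Pdgfd*, and the 33 *Tspan12* KO cells of that subcluster 92.7 CPM. By tip genes the order was the reverse of that of *Pdgfb*: cells with 3 or more tip UMIs held 56.1, 27.3 and 27.8 CPM and cells with none 84.5, 47.2 and 43.6 CPM. Over the tip groups the ligand pair thus ran in opposite directions, whereas both were lower in proliferative than in other ECs of WT and *Ctnnb1* cKO, *Pdgfb* by log2 ratios of -0.22 (-0.32 to -0.12) and -0.49 (-0.59 to -0.38). Without thinning, 237 of 541 WT, 105 of 291 *Tspan12* KO and 320 of 2728 cKO ECs held UMIs of both. Such counts follow depth, which was lowest in cKO ECs, so they do not compare the libraries.

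After thinning, a *Pdgfd* UMI was seen in 12.1% (9.42 to 15.2%), 7.63% (4.72 to 11.5%) and 7.87% (6.70 to 9.17%) of ECs, against 0.355%, 0.136% and 0.394% of rods. Unthinned shares were 47.1%, 37.5% and 14.9%.

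Outside ECs, *Pdgfd* was found in astrocytes and amacrine cells. Astrocytes held 12, 37 and 1 UMIs, or 69.4 CPM (35.9 to 121), 61.8 CPM (43.5 to 85.2) and 24.3 CPM (0.615 to 135), so that the WT astrocyte and EC levels were not distinguishable. Amacrine cells, inhibitory interneurons, held 35.1 CPM (30.5 to 40.2), 41.6 CPM (35.7 to 48.1) and 17.8 CPM (10.2 to 28.9). Compared with WT, the amacrine log2 ratio was 0.25 (-0.050 to 0.54) for *Tspan12* KO, which became -0.62 when doublets were kept, and -0.98 (-1.81 to -0.25) for the cKO. A *Pdgfd* UMI was present in 7.73% of thinned WT amacrine cells.

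Beta-catenin acts on genes through TCF/LEF factors. A form of their binding core reads CTTTGT, or ACAAAG on the other strand, and for that reason the promoters that hold these letters are shown. Other forms of the core were not searched. The 250 bases before the start site were searched on both strands in the RefSeq promoter table (GRCm38.p6). It matched 4 of the 6 genes with 5 entries, *Pdgfa* (2 entries), *Pdgfc*, *Pdgfd* and *Pdgfra*, and not *Pdgfb* or *Pdgfrb*. The letters occurred once in *Pdgfd* and once in *Pdgfc*, in neither entry of *Pdgfa* and not in *Pdgfra*. Of all 32851 promoters in the table, 16.5% held them. The match is given as a description, with the matched letters in capitals and both sequences on the forward strand, at chr9:6168236-6168485 for *Pdgfd* and chr3:81036166-81036415 for *Pdgfc*:
Pdgfd: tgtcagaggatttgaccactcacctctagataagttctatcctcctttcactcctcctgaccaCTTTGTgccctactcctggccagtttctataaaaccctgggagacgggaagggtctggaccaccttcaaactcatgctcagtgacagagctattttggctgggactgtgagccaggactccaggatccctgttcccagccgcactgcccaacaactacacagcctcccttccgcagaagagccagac
Pdgfc: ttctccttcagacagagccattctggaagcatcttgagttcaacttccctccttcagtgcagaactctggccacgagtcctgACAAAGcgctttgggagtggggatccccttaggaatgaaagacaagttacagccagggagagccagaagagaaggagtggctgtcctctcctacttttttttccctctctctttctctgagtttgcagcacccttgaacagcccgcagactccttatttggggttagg

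*Pdgfa*, the ligand that acts on astrocytes and glial precursors through PDGFR alpha, was detected in mural cells, microglia, rods and ECs. In mural cells of named subclusters it gave 14, 40 and 18 UMIs, or 112 CPM (61.4 to 189), 150 CPM (107 to 204) and 132 CPM (78.5 to 209), with overlapping intervals. The 11 WT cells are below the planned minimum of 20. In microglia *Pdgfa* was 25.8, 26.4 and 25.7 CPM, and the log2 ratio to WT was 0.038 (-0.46 to 0.53) and -0.0019 (-0.40 to 0.41), so no difference was detectable within those limits. With the rod level of the same library subtracted, where the rod level is close to the microglial one, the *Tspan12* KO value was 1.32. ECs held 142, 82 and 166 UMIs, or 8.77, 12.6 and 12.6 CPM, so that log2 ratios to WT were 0.53 (0.12 to 0.93) and 0.53 (0.19 to 0.86). Outside the proliferative subclusters both were 0.42, with intervals that include 0 (-0.25 to 1.06 and -0.025 to 0.87). Endothelial *Pdgfa* was below the rod level in WT and *Ctnnb1* cKO, and cones held 10.9, 9.22 and 12.2 CPM. The part of RNA from other cells in the endothelial level was not tested. Over the tip groups *Pdgfa* had no steady order in WT and *Tspan12* KO. Cells with none, with 1 or 2 and with 3 or more tip UMIs held 6.75, 12.7 and 3.26 CPM in WT. They held 25.8, 4.26 and 14.1 CPM in *Tspan12* KO and 15.1, 12.2 and 4.63 CPM in *Ctnnb1* cKO. The log2 ratio of ECs with 3 or more tip UMIs to ECs with none was -1.05 (-2.17 to -0.047), -0.87 (-1.61 to -0.15) and -1.71 (-3.07 to -0.60). *Pdgfa* was thus lower in the former within each library, from 11, 29 and 7 UMIs there. Rods held 19.7 CPM (16.7 to 23.0), 11.3 CPM (9.49 to 13.3) and 18.2 CPM (14.1 to 23.2), a ratio of -0.81 (-1.14 to -0.47) in *Tspan12* KO. Rods of the *Tspan12* KO library had a lower *Pdgfa* level than those of both other libraries. The libraries filled the rod clusters unequally, however. The clusters held 1071, 1617 and 57 cells, 692, 1997 and 18 cells, and 26, 66 and 1470 cells, and *Pdgfa* was not compared within them. The unnamed cluster led by *Crhbp*, *Ttr* and *Optc* held 57.5 CPM in 49 *Tspan12* KO cells and 56.0 CPM in 91 cKO cells.

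*Pdgfc*, the other latent ligand with a CUB domain, marked Muller glia, the radial glia of the retina, and retinal progenitors. Muller glia held 760, 547 and 34 UMIs, or 110 CPM (103 to 118), 137 CPM (125 to 149) and 111 CPM (77.0 to 155). Progenitors held 59.9 CPM (52.1 to 68.6), 63.7 CPM (52.9 to 76.0) and 30.2 CPM (23.5 to 38.3). Every other named class was at or below 9.88 CPM in WT, and ECs stood at 3.15, 2.16 and 2.36 CPM. For Muller glia the log2 ratios to WT were 0.31 (0.15 to 0.47) and 0.012 (-0.53 to 0.51), and a gate on marker counts in place of clusters gave -0.035 and -1.92. Progenitors differed in the cKO library, with -0.99 (-1.40 to -0.59), and not detectably in *Tspan12* KO, with 0.088 (-0.24 to 0.42), or -0.71 by the marker gate. Thinned shares with a *Pdgfc* UMI were 16.5%, 20.3% and 16.2% in Muller glia, 43 of 392, 28 of 279 and 17 of 336 progenitors, and 0.852%, 1.09% and 0.787% in rods. The progenitor class of the cKO library was made mostly of 1 cluster, which held 585 of its 678 cells and 29.5 CPM of *Pdgfc*, against 55.3 CPM in the 126 WT cells of that cluster.

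**Figure D3:**
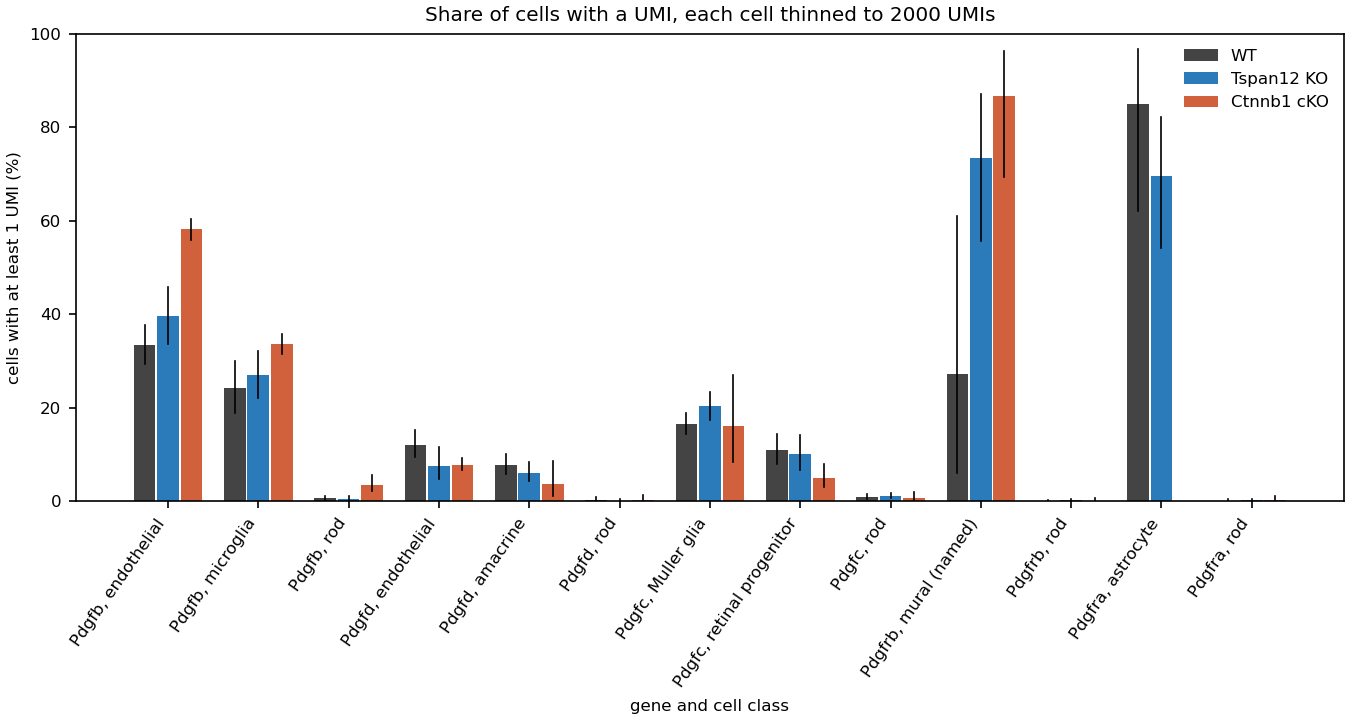
Share of cells (y axis, %) with at least 1 UMI of a gene after each cell was thinned to 2000 UMIs, by gene, class and library (colour), with exact Clopper-Pearson 95% intervals. Rods are shown beside each gene except *Pdgfa*, and astrocytes of *Ctnnb1* cKO have no bar because fewer than 10 were deep enough. *Pdgfb* in ECs rose from 33.4% in WT to 58.2% in *Ctnnb1* cKO, against 3.54% of cKO rods.

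*Pdgfrb*, the receptor of pericytes and smooth muscle cells, set mural cells apart from every other class. In the whole mural class it gave 103, 327 and 128 UMIs, or 172 CPM (140 to 208), 266 CPM (238 to 296) and 553 CPM (462 to 658). All 12 mural markers were detected in each library, with summed levels of 4666, 5584 and 8713 CPM, and all 10 endothelial markers were present too, at 6277, 5535 and 3125 CPM. A single WT barcode held 251052 of the 600325 UMIs of the WT mural class. An unnamed mural subcluster of 34 cells, 28 of them *Tspan12* KO, had a median of 34202.5 UMIs and was led by globin genes, and these cells carried *Pdgfb* at 175 CPM in *Tspan12* KO. Restricting the class to its subclusters named pericyte or smooth muscle, a choice made after the data were seen, left 11, 35 and 52 cells with mural markers at 15316, 16105 and 12914 CPM and endothelial markers at 1204, 720 and 1169 CPM. The pericyte subcluster that held 35 of the 52 cKO cells was led by *Ctss*, *C1qb* and *Laptm5*, genes of microglia, and the 9 microglial markers summed to 193, 67.5 and 544 CPM in the restricted cells and to 101, 102 and 488 CPM in rods.

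In these cells *Pdgfrb* was 417 CPM (312 to 547), 765 CPM (664 to 877) and 846 CPM (698 to 1015). The WT interval lay below both others, and the knockout intervals overlapped. The libraries filled different subclusters, however: the pericyte subcluster with 35 cKO cells held 0 WT cells, that with 19 *Tspan12* KO cells also held 0, and WT cells lay in another pericyte subcluster, with 7, 2 and 8 cells, and among smooth muscle cells, with 4, 14 and 4. Relative to WT, the log2 ratio was 0.87 (0.43 to 1.34) with *Tspan12* KO cells and 1.02 (0.53 to 1.52) with cKO cells, and that of cKO over *Tspan12* KO was 0.14 (-0.20 to 0.48). Over the whole class the ratios were 0.63 (0.31 to 0.96) and 1.69 (1.30 to 2.08), and the gate on marker counts turned the former to -0.70 in the 21, 89 and 83 cells it selected. The WT level rests on 52 UMIs, of which 1 cell held 21. Without that cell it was 309 CPM, which leaves the WT level the lowest. Per cell the lowest, median and highest counts were 0, 4 and 21 UMIs in WT, 0, 5 and 12 in *Tspan12* KO and 0, 1 and 10 in *Ctnnb1* cKO, where cells were shallower. A *Pdgfrb* UMI was seen in 3 of 11 WT cells after thinning (27.3%, 6.02 to 61.0%), in 73.5% of 34 *Tspan12* KO cells (55.6 to 87.1%) and in 86.7% of 30 cKO cells (69.3 to 96.2%). Rods were at 0.0710%, 0.204% and 0 of 508 cells, where the floor of 3 counts stands at 0.591%. Pericyte subclusters of cKO and *Tspan12* KO cells held 765 and 925 CPM, and 14 *Tspan12* KO smooth muscle cells held 583 CPM. Pericyte numbers cannot be read from these libraries, in which beads selected cells, and named mural cells stood at 11 to 541, 35 to 291 and 52 to 2728 ECs.

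Mural cells also carried *Pdgfa*, given above, and little *Pdgfb* once restricted: 16.1, 33.7 and 22.1 CPM from 2, 9 and 3 UMIs, where the cKO value was near the 21.0 CPM of cKO rods. Over the whole mural class *Pdgfb* had been 122, 144 and 151 CPM, so the restriction lowered *Pdgfb* and endothelial markers alike in each library. *Pdgfra* had 0 UMIs in the restricted mural cells of all 3 libraries. In the whole mural class without thinning, *Pdgfrb* and *Pdgfa* occurred together in 10 of 15 WT, 35 of 64 *Tspan12* KO and 16 of 65 cKO cells. Single barcodes thus held transcripts of a ligand and a receptor. The counts include the deep WT barcode and the globin-led subcluster described above, and were not taken in the restricted cells.

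ECs themselves had 4, 16 and 93 *Pdgfrb* UMIs, or 0.247, 2.46 and 7.08 CPM. Of the 93 in cKO, 61 came from 21 cells of an EC subcluster led by the mural genes *Rgs4*, *Rgs5* and *Notch3*. Without that subcluster and another led by photoreceptor genes, ECs held 0.254, 2.07 and 2.48 CPM. The log2 ratios to WT, which rests on 4 UMIs, were 3.32 (1.69 to 5.36) and 4.84 (3.44 to 6.75). Without those subclusters they were 3.03 (1.33 to 5.10) and 3.29 (1.79 to 5.25). The summed level of the 12 mural markers in ECs was 32, 54 and 82 CPM, the same order as *Pdgfrb* but a smaller change. The source of *Pdgfrb* in ECs was not tested. Muller glia came after mural cells in WT, with 7.11 CPM (5.26 to 9.40), and WT microglia, astrocytes and rods lay at or under 0.736 CPM.

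*Pdgfra*, the receptor of retinal astrocytes and of oligodendrocyte precursors, was far higher in astrocytes than in any other named class of 20 or more cells. It gave 197, 472 and 39 UMIs there, or 1139 CPM (986 to 1310), 789 CPM (719 to 863) and 947 CPM (673 to 1295). The next named class with at least 20 cells was Muller glia in WT and *Tspan12* KO, at 11.0 and 15.2 CPM, 103-fold and 51.8-fold below astrocytes. Astrocytic log2 ratios to WT were -0.53 (-0.77 to -0.28) for *Tspan12* KO, or 1.38 by the marker gate, and -0.27 (-0.80 to 0.24) for the cKO, whose 19 astrocytes are below the planned minimum of 20. One *Tspan12* KO astrocyte held 91 of that library's 472 UMIs, and the level without it was 714 CPM. Counts per cell ran from 1 to 22 around a median of 9 in WT, from 0 to 91 around 5 in *Tspan12* KO and from 0 to 6 around 1 in *Ctnnb1* cKO. Without thinning 21 of 21, 44 of 48 and 15 of 19 astrocytes had a *Pdgfra* UMI. At 2000 UMIs per cell, 85.0% of WT (62.1 to 96.8%) and 69.6% of *Tspan12* KO astrocytes (54.2 to 82.3%) did, which overlap, against 0.142% and 0.204% of rods. Astrocyte markers were detected as 6, 6 and 5 of 7, with *Gfap* and *Pax2* leading the cluster, and endothelial markers summed to 202, 597 and 364 CPM there. *Pdgfrb* had 0 UMIs in astrocytes of all 3 libraries, where the floor of 3 counts stands at 17.3, 5.01 and 72.9 CPM.

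**Figure D4:**
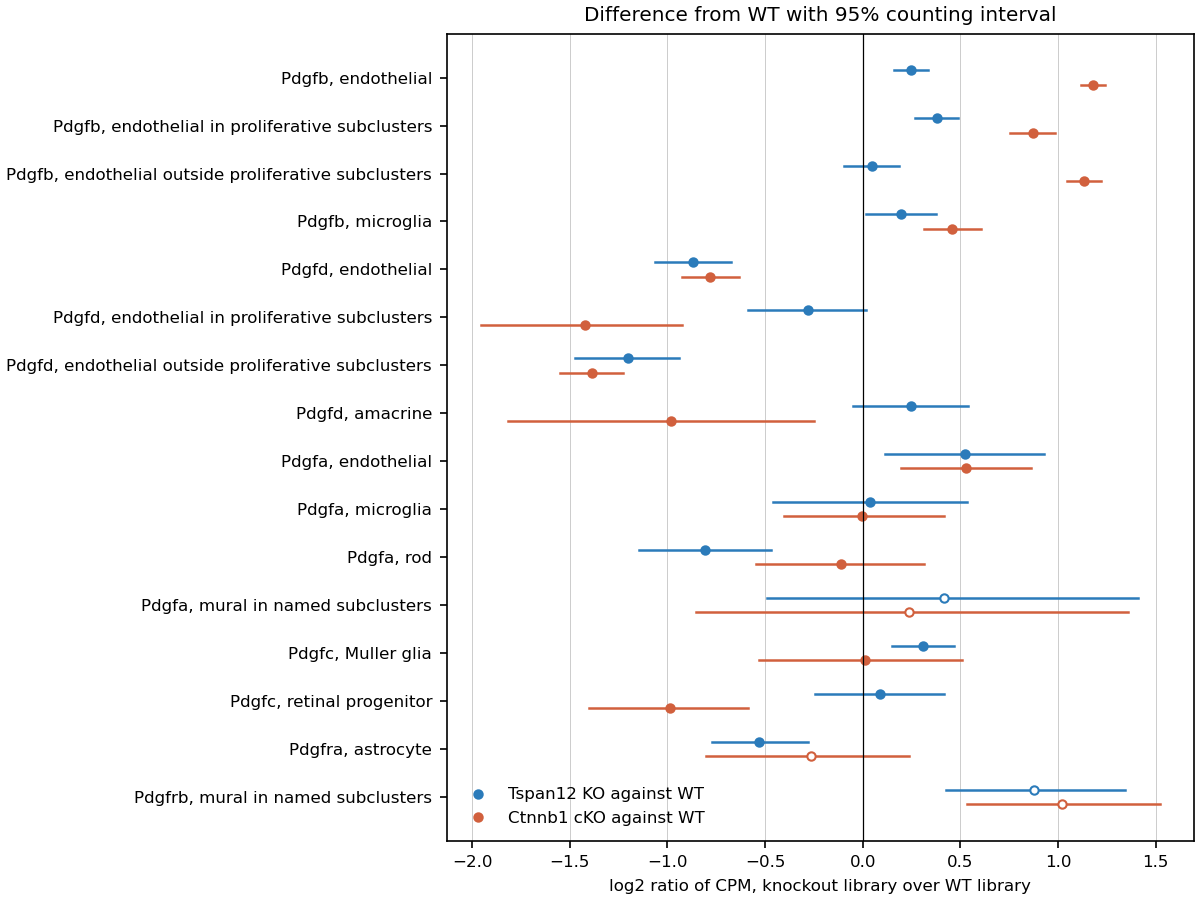
Log2 ratio of CPM to the WT library (x axis) for a gene in a class (y axis) in *Tspan12* KO and *Ctnnb1* cKO (colour), with exact conditional binomial 95% intervals for counting error only and open points where a class had under 20 cells. *Pdgfb* in ECs lay at 0.25 and 1.18, *Pdgfd* in ECs at -0.87 and -0.78, and *Pdgfrb* in named mural cells at 0.87 and 1.02.

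To place the 6 genes among all genes of ECs, genes with at least 50 UMIs over both libraries were counted past a 2-fold difference (log2 of CPM plus 5). In *Tspan12* KO against WT, 0.573% of 12226 genes were higher and 1.1% lower, and of the 4 PDGF genes with enough UMIs 0 were past that limit. In *Ctnnb1* cKO against WT, 4.11% of 12853 genes were higher and 5.23% lower, with a median over all of them of -0.086, and 2 of 5 PDGF genes were higher and 0 lower. The 2 were *Pdgfb*, at 1.16 on this scale, and *Pdgfrb*, from the 93 UMIs described above. Without the mixed subclusters *Pdgfrb* had under 50 UMIs and stood at 0.51, and *Pdgfb* stayed at 1.16. *Pdgfd* stood at -0.79 in *Tspan12* KO and -0.72 in *Ctnnb1* cKO.

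Further genes of the pathway were counted in ECs by the same limit, 40 in 5 lists. In *Tspan12* KO, 35 were measured, with 1 at least 2-fold higher, 2 lower and a median of 0.021, and in *Ctnnb1* cKO 38, with 3 higher, 3 lower and a median of -0.050. *Plat*, the tissue plasminogen activator that can cut the CUB domain from PDGF-C, was lower in both: its 143, 53.0 and 65.1 CPM gave ratios to WT of -1.43 (-1.60 to -1.26) and -1.13 (-1.25 to -1.02) on the log2 scale. It was the 1 of 4 measured ligand-processing genes past the limit, and *Furin*, a proprotein convertase, stood at 34.7, 56.8 and 31.3 CPM. Of 6 matrix and co-receptor genes, *Hspg2*, the basement membrane proteoglycan perlecan, was higher in *Tspan12* KO, at 317, 747 and 416 CPM, and *Lrp1*, a co-receptor of PDGFR beta, in *Ctnnb1* cKO, at 2.78, 3.23 and 12.6 CPM. These *Lrp1* levels were low, and the part of RNA from other cells in them was not tested.

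Among 14 genes of receptor-proximal signalling, such as *Grb2*, *Ptpn11* and *Plcg1*, 0 passed the limit in either library, with medians of 0.097 and -0.15. Of 8 partners in endothelial to mural signalling, *Cdh2*, the N-cadherin that joins ECs and pericytes, was lower in *Ctnnb1* cKO, at 677, 442 and 288 CPM, a log2 ratio of -1.23 (-1.29 to -1.18). The related class III receptors and ligands held the rest: *Kitl*, the ligand of KIT, was 448, 169 and 128 CPM, with -1.40 (-1.50 to -1.31) and -1.81 (-1.89 to -1.73). *Csf1*, a growth factor of macrophages, reached 43.2 CPM in cKO ECs, 1.53 above WT on the log2 scale, and its receptor *Csf1r*, normally of microglia, stood at 5.19, 2.46 and 58.0 CPM, while the 9 microglial markers in ECs summed to 114, 98 and 396 CPM. The part of microglial RNA in *Csf1r* was not tested.

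The pattern of each gene over 36 sums of a class in a library was compared with that of every gene of at least 50 UMIs, as a description, since the points share libraries and depth. The Pearson r of log2(CPM + 1) was highest for *Pdgfb* with *Col15a1* (0.90), *Acvrl1* (0.90), *Sting1* (0.88), *Cd34* (0.87) and *Kcnj2* (0.86). *Pdgfd* came closest to *Megf6* (0.91), *Antxr1* (0.83), *Vegfc* (0.82), *Pam* (0.82) and *Ddah1* (0.82). For *Pdgfc* these were *Utp14b* (0.91), *Sulf1* (0.89), *1700019D03Rik* (0.89), *Popdc3* (0.88) and *Hes5* (0.88), and for *Pdgfa* they were *Akip1* (0.84), *Il11ra1* (0.72), *Npnt* (0.72), *Nr2f6* (0.71) and *Gmppb* (0.71). Among the receptors, *Pdgfra* was nearest to *Mlc1* (0.94), *Cbs* (0.91), *Vit* (0.90), *Syndig1* (0.90) and *Hs3st2* (0.90), and *Pdgfrb* to *Bmp5* (0.88), *Itga7* (0.88), *Cd248* (0.88), *Kcnj8* (0.86) and *Hspb2* (0.85). Between the 6 genes themselves r ran from -0.33, for *Pdgfb* with *Pdgfc*, to 0.60, for *Pdgfd* with *Pdgfra*.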

How the data were processed

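The authors made the deposited matrices of raw UMI counts per gene and barcode with Cell Ranger (version 8.0.1 in the headers, another in the methods). Processing notes name GRCm39, the methods an older build, so no coordinates are given for the counted genes; those of the printed promoters are RefSeq's on GRCm38.p6. The counts are unnormalised, 3' tags, and were compared within a gene.

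The filters asked for 250 genes, 500 UMIs and a mitochondrial share of at most 15%, and 760, 1656 and 665 top-scoring doublets (Scrublet, 0.8% per 1000 cells) were removed. Clustering used scanpy 1.11.5 and leidenalg 0.10.2 (2000 variable genes without the 6 members, 30 components, 20 neighbours, resolution 1), with no batch integration. The 30 clusters were named from 22 marker lists, and 7 stayed unnamed. The version of numpy was 2.4.6, of scipy 1.17.1 and of edgeR 4.0.16 (TMM factors only).

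UMIs were summed per class and library. Groups came from the genotype labels. With 1 library per group no test was run: intervals are at 95% for counting error, and a count of 0 has a floor of 3 counts. Classes under the planned 20 cells are given down to 10, a limit lowered after the data were seen. Thinning drew 2000 UMIs per cell without replacement.

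The genes, marker and pathway lists and alternatives were chosen with earlier results of these data known. Genes named are the 6 members, the 5 genes of highest r to each, pathway genes past 2-fold in ECs, markers and the targeted genes; *Furin*, *Grb2*, *Ptpn11* and *Plcg1* are examples outside this rule. The interval computation was tested on simulated data. Alternatives were TMM scaling, no doublet removal, resolution 2, a marker gate, 10% mitochondrial UMIs, a mean over cells, other count limits, pseudocounts and depths, and, added after the data were seen, subtraction of the rod level and subsets of subclusters.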

Additional observations from a re-analysis of the deposited data

Results flagged for a closer look

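In 3 genes the *Tspan12* KO library lay above WT in 1 class and below it in another, with counting intervals off 0 in both; the difference between classes was not tested. *Pdgfa* had a log2 ratio of 0.53 in ECs and -0.81 in rods. *Pdgfd* stood at 1.41 in retinal progenitors, from 11 WT and 16 knockout UMIs, against -0.87 in ECs and -0.93 in Muller glia, from 59 and 18 UMIs. *Pdgfra* stood at 1.78 in ECs, from 16 WT and 22 knockout UMIs, and at 1.26 in progenitors, from 16 and 21 UMIs. In astrocytes it stood at -0.53, or at 1.38 by the marker gate. The 7 astrocyte markers in ECs summed to 169 CPM in WT and 217 CPM in *Tspan12* KO, and their part in the endothelial *Pdgfra* level was not tested. Outside proliferative subclusters the endothelial *Pdgfa* ratio was 0.42 with an interval that includes 0 (-0.25 to 1.06). The endothelial *Pdgfra* ratio there was 0.67, also with an interval that includes 0 (-0.81 to 2.05). In proliferative ECs it was 3.51 (1.67 to 5.95), from 3 WT and 14 knockout UMIs. With 1 library per genotype, these are differences between libraries.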

How the results depend on the processing

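The log2 ratios in ECs kept their direction under every alternative run: 0.046 to 0.27 and 1.12 to 1.33 for *Pdgfb*, -1.20 to -0.39 and -1.39 to -0.29 for *Pdgfd* (*Tspan12* KO, then *Ctnnb1* cKO). *Pdgfb* moved beyond its counting interval to 0.046 in *Tspan12* KO outside proliferative subclusters and to 1.33 in *Ctnnb1* cKO with TMM scaling. Receptor ratios depended on how cells were assigned. A gate on marker counts put *Pdgfrb* in mural cells at -0.70 and 0.64 in place of 0.63 and 1.69, and *Pdgfra* in astrocytes at 1.38 and 1.08 in place of -0.53 and -0.27. That gate held 21, 89 and 83 mural and 21, 31 and 12 astrocyte-like cells, with endothelial markers at 5516 CPM in WT astrocytes against 202 CPM in the clusters; the cause was not tested. *Pdgfrb* in *Ctnnb1* cKO fell to 1.09 with doublets kept and to 1.02 in named mural subclusters. The gate also put *Pdgfc* in *Tspan12* KO Muller glia at -0.035 and *Pdgfa* in mural cells at -0.55 and -0.056.

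With a pseudocount of 1 CPM, genes past 2-fold in ECs numbered 175 higher and 359 lower in *Tspan12* KO (70 and 134 with 5 CPM) and 899 higher and 1300 lower in *Ctnnb1* cKO (528 and 672). Shares followed depth. ECs with *Pdgfb* were 18.0%, 22.3% and 36.2% at 1000 UMIs and 82.8%, 76.6% and 69.1% unthinned. *Pdgfrb* was seen in 56.5% of all *Tspan12* KO mural cells at 2000 UMIs, 35.9% of them at 1000 and 93.8% unthinned, and in 80.0% of WT ones unthinned. *Pdgfra* in astrocytes was 46.8% in *Tspan12* KO at 1000, and 100% in WT and 91.7% in *Tspan12* KO unthinned. Under the alternatives, 72 values of the main comparisons and 118 others stayed within their interval or 1.5 times, 22 and 25 moved, and 2 and 3 whose interval did not include 0 took the opposite sign. Among values whose interval included 0, signs also turned, as for *Pdgfra* in cKO astrocytes above, *Pdgfd* in *Tspan12* KO amacrine cells (down to -0.62) and *Pdgfc* in *Tspan12* KO progenitors (-0.71) and cKO Muller glia (-1.92). No paired analysis was possible because each genotype has 1 library, and for the same reason no replicate could be left out. Depth limits low genes: in cKO astrocytes, 19 shallow cells, the floor of 3 counts stands at 72.9 CPM.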
